A study of Mus musculus with 1 sample.

Results

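The Hedgehog ligands, their receptors and the GLI transcription factors were described in surface epithelial cells from ovaries of wild-type mice, 3 months of age. The set held 9 genes, Shh, Ihh, Dhh, Ptch1, Smo, Hhip, Gli1, Gli2 and Gli3. They were found through the array annotation as all probe sets that carry only 1 of these symbols, which gave 21 of 45101 probe sets and 9 of 18193 named genes. The ovarian surface epithelium is the outer cell layer of the ovary and is continuous with the mesothelium. RNA came from 1 sample on 1 Affymetrix expression array. The series design names 3 mouse genotypes, but only the wild type was analysed here, so genotypes could not be compared and the values carry no error between replicates. No strain is given in the labels, nor whether animals were pooled or the cells cultured.

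Hedgehog ligands are secreted proteins that bind the receptor PTCH1 and thereby release its block on the transmembrane protein SMO. Active SMO, working at the primary cilium, shifts the transcription factors GLI2 and GLI3 away from repression and towards activation. Gli1, Ptch1 and Hhip are themselves induced by the pathway, and the PTCH1 and HHIP proteins then hold ligand back. In the mouse ovary, granulosa cells of the follicle are known to make Dhh and Ihh, and theca and interstitial cells are known to respond.

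Smo, Gli3, Ptch1, Gli2 and Dhh each had at least 1 probe set above background, and Shh, Ihh, Gli1 and Hhip had none. Of the 3 ligands 1 passed, of the 3 GLI factors 2 passed, and of the 3 pathway-induced genes Gli1, Ptch1 and Hhip only Ptch1 passed. A probe set was taken as above background when its intensity was over 46.5. This limit was the 95th percentile of a background of 126 probe sets, which belong to gene families not known to act in the ovary (receptors for odours, pheromones and bitter taste, and hair keratin-associated proteins) and had a median of 13. The count of 5 of 9 genes (55.6%) stands beside 62.8% of all named genes above the same limit, and 8 of the 21 probe sets (38.1%) beside 55.1% of all named probe sets. Genes with more probe sets pass more often: 47.3% of genes with 1 probe set did, 71.8% with 2, 82.9% with 3 and 88.0% with 4. At those rates 9 genes with the same numbers of probe sets would give 6.47 above the limit, so the count of 5 is near the background of the array and is read gene by gene below.

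**Figure D1:**
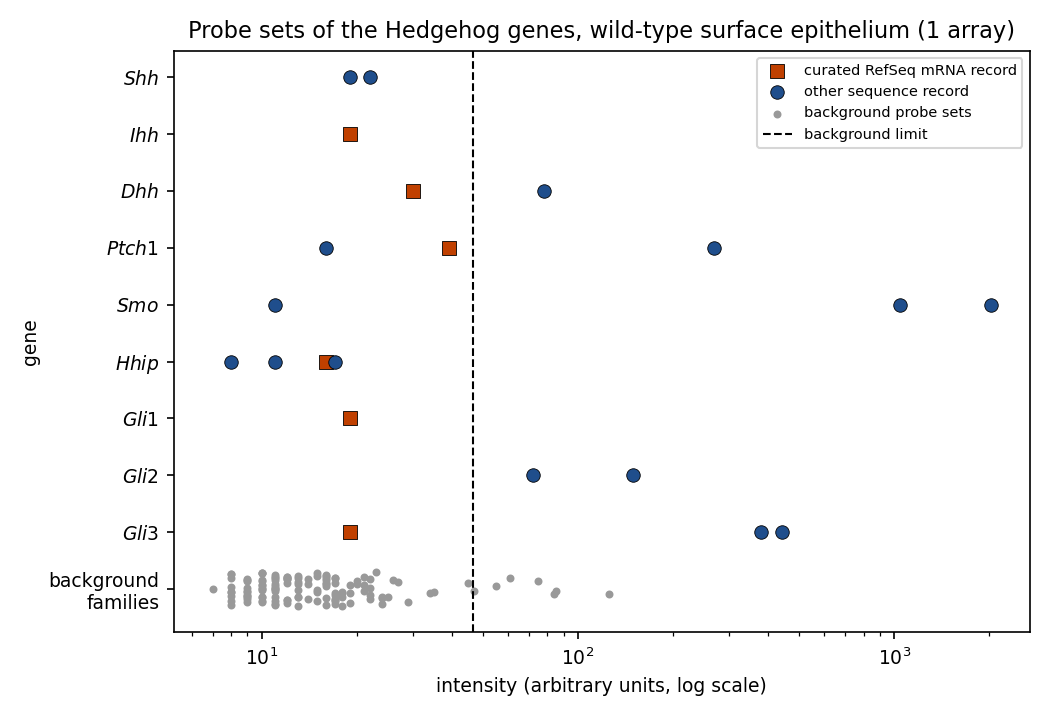
Intensity of every probe set of the 9 genes on a log axis, in arbitrary units, with the 126 background probe sets in the lowest row (spread vertically for display) and the limit of 46.5 as a dashed line. Smo, Gli3, Ptch1, Gli2 and Dhh have points to the right of the line, and all squares (probe sets paired with a curated RefSeq mRNA record) lie to its left.

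Among the ligands, only Dhh, encoding desert hedgehog, the ligand best known from the testis and peripheral nerve, had a probe set above the limit. Its 2 probe sets had intensities of 78 and 30. The brighter (1434959_at) was 0.75 above the limit on the log2 scale and exceeded 123 of the 126 background probe sets, and the dimmer (1422127_at) exceeded 116 of them. Shh, encoding sonic hedgehog, the main ligand of limb and neural tube patterning, had intensities of 22 and 19. Ihh, encoding indian hedgehog, known for its role in growing cartilage, had 19 on its only probe set. The Shh and Ihh values lay among the background probe sets, of which 104 and 96 were below the brighter Shh value and the Ihh value. The call for Dhh was lost with a limit at the 99th percentile of background, 84.75, which its 78 did not reach.

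The ligand-binding receptor and the signal transducer were both above the limit. Ptch1, the receptor that binds the ligands, had intensities of 269, 39 and 16. Only the first of these (1428853_at) passed, by 2.53 on the log2 scale, while 39 stood at -0.25 relative to the limit on the same scale. Smo, the transducer that Ptch1 restrains, had 2021, 1041 and 11. Its first 2 probe sets were 5.44 and 4.48 above the limit on the log2 scale and lay above all 126 background probe sets, whereas the third (1442215_at) was below the background median of 13. The 2 bright probe sets of Smo are paired with the same sequence record, so they are not independent measures of the transcript. Hhip, which encodes a membrane protein that binds the ligands and keeps them from Ptch1, had 17, 16, 11 and 8 on 4 probe sets. None of the Hhip values reached the limit, and the highest stood at -1.45 relative to it on the log2 scale.

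The GLI factors were divided. Gli3, known chiefly for its repressor form, had 443, 380 and 19, with the 2 brighter values 3.25 and 3.03 above the limit on the log2 scale. These 2 probe sets are paired with different sequence records. Gli2, known chiefly as the main activator at the start of a response, had 149 and 72, which were 1.68 and 0.63 above the limit. Gli2 was the only 1 of the 9 genes with every probe set above the limit, and its 2 probe sets share a sequence record. Gli1, an activator whose transcript is widely used as a readout of the pathway, had 19 on its single probe set (1449058_at), which is -1.29 relative to the limit on the log2 scale. Only 47.3% of the array's genes with 1 probe set passed, and 50.5% of those whose 1 probe set is paired, like that of Gli1, with a curated RefSeq mRNA record.

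Probe sets of the same gene differed widely. For Smo, the brightest intensity was 184 times the dimmest, for Gli3 it was 23.3 times, and for Ptch1 16.8 times. The SD between probe sets on the log2 scale was 4.09 for Smo, 2.56 for Gli3, 2.08 for Ptch1, 0.97 for Dhh, 0.74 for Gli2, 0.51 for Hhip and 0.15 for Shh, while the median over all genes with several probe sets was 1.39. This is the only spread 1 array offers and is not a replicate error. Intensities of different probe sets depend on their affinities, so no order of levels between the 9 genes is given.

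The side of the limit also went with the kind of sequence record that the annotation pairs with a probe set. Of the 6 probe sets paired with a curated RefSeq mRNA record, none was above the limit, against 8 of the 15 paired with another record. This split was made after the values were seen. Among the 6, those of Ihh, Gli1 and Hhip belong to genes with no probe set above the limit. Over the whole array the shares were 59.0% for curated records and 54.3% for other records, so on the array as a whole curated records did not read lower. Dhh, Ptch1 and Gli3 each had a curated-record probe set, at 30, 39 and 19, and each passed through another record. Among 1705 genes of the array that have both kinds of record and were above the limit, 15.8% passed through another record only and 23.7% through the curated record only. Gli1 and Ihh were measured by a curated record alone, each at 19, the same intensity as the curated-record probe set of Gli3. Whether these probe sets respond to their transcripts was not tested, so the Gli1 and Ihh values do not tell a silent gene from a probe set that reads low.

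Promoters were set beside the calls to see which sequence features the genes share. RefSeq windows of GRCm38.p6 were found for 7 of the 9 genes, and Shh and Gli1 had none in the table used. The windows of Ihh, Smo and Gli3 end at the annotated gene start, while those of Dhh, Hhip, Gli2 and Ptch1 belong to starts lying 22, 52, 786 and 7725 bases inside the annotated gene. In the 250 bases before the start, CpG dinucleotides numbered 41 in Ptch1, 34 in Gli3, 28 in Hhip, 24 in Ihh, 22 in Gli2, 15 in Smo and 9 in Dhh, against a median of 13 over 11791 array genes with 1 such window. The GC content was 59.6% to 78.4%, against a median of 57.6%. The 3 sequences shown are of the ligand above the limit (Dhh), a ligand at background (Ihh) and a GLI factor above the limit (Gli3), each read 5′ to 3′ on the strand of the gene with its CpG in capitals.
Dhh, chr15:98898541-98898790, minus strand: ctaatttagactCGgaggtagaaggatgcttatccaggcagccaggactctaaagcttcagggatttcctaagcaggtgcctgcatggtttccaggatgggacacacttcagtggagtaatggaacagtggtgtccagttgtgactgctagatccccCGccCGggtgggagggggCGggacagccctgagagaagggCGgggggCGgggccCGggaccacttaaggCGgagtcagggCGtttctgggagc
Ihh, chr1:74951673-74951922, minus strand: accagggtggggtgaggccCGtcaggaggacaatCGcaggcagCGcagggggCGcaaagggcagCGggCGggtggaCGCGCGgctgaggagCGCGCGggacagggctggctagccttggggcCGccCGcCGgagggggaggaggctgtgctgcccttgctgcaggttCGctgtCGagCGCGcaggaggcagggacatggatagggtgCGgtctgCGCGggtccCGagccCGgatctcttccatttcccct
Gli3, chr13:15463473-15463722, plus strand: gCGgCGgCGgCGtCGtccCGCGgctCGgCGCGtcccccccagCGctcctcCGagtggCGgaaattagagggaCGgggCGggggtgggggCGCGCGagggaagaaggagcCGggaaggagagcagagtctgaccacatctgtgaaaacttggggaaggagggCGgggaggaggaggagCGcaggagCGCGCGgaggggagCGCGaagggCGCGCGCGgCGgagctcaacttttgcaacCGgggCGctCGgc
The Dhh stretch has few capitals, all but 1 of them in its last 100 bases, whereas Ihh and Gli3 carry them along most of their length.

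CpG content did not separate the genes above the limit from those at background. Of the 5 genes with 20 CpG or more, 3 were above the limit (Ptch1, Gli2 and Gli3) and 2 were not (Ihh and Hhip). Over the array, 83.5% of 3276 genes with 20 CpG or more were above the limit, 78.7% with 10 to 19, 53.0% with 5 to 9 and 21.8% with 4 or fewer. Dhh, with 9 CpG, lay in a class where 53.0% of genes passed. The letters CCACCCA, a core of the GLI binding motif, or their reverse complement TGGGTGG, occurred in none of the 7 windows of 300 bases, which include the first 50 transcribed bases, and in 9.30% of all 32851 windows. This says only that those letters are not in these windows.

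**Figure D2:**
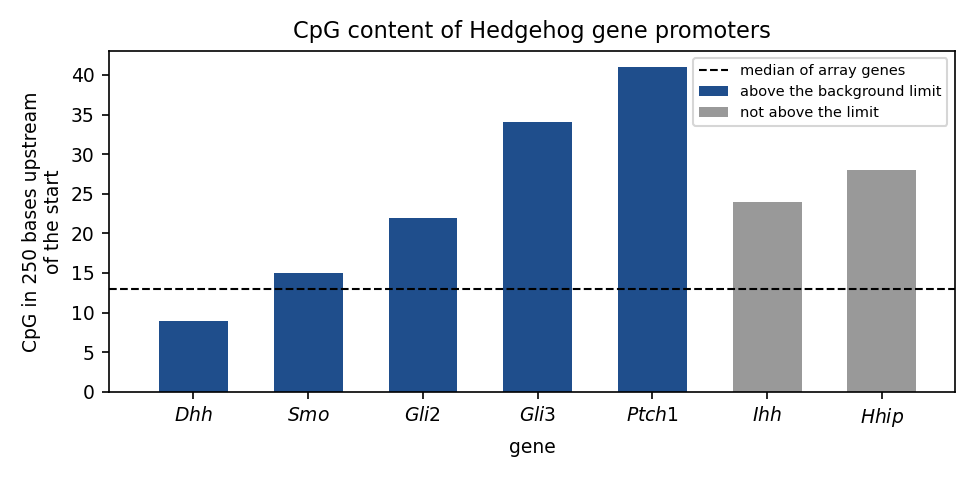
Bars give the number of CpG dinucleotides in the 250 bases before the start of 7 genes, blue for genes above the background limit and grey for genes that are not, with the median of array genes (13) as a dashed line. Ihh (24) and Hhip (28), both at background, lie above the median, and Dhh (9), above the limit, lies below it.

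The rest of the pathway was mostly above background. Of 48 measured genes in 5 lists 45 (93.8%) passed, against 62.8% of all named genes and against 35.1 that the array's rates for the same numbers of probe sets would give. Most of these genes are well studied, and the lists were chosen with earlier results of these data known. Arl13b was not analysed here.

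Ligand processing and release had 5 of 6 genes above the limit, where the array's rates would give 3.68. Disp1, which releases the lipid-bearing ligand from the cell, had 575 and 151, and Hhat, the acyltransferase that adds palmitate to the ligand, had 170 and 43. Scube2 and Scube1, secreted proteins of the family that carries released ligand, had 47 and 54, both close to the limit of 46.5. Scube3, of the same family, had 1294 and was named after its value was seen. Disp2, a relative of Disp1, was the 1 gene not above it, with at most 42, and was named after its value was seen.

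All 5 measured co-receptors and ligand-binding proteins were above the limit, where the array's rates would give 3.68. Gas1, a membrane-anchored co-receptor, had 13026, 5512 and 74, all of them above 46.5. Cdon, an immunoglobulin-type co-receptor, had 1845 and 78. Boc, the relative of Cdon, had 360, 348 and 9, with only the third below the limit. Lrp2, a large endocytic receptor that can take up ligand, had 197, 136 and 18. Unlike the ligands themselves, of which 1 of 3 passed, each of these genes had at least 1 probe set well over 46.5; the difference between the 2 groups was not tested.

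All 11 measured genes of the relay between SMO and GLI at the cilium passed, where the array's rates would give 7.17. Sufu, which holds GLI factors inactive in the cytoplasm, had 477, 53 and 24. Kif7, a kinesin-family protein at the tip of the cilium, had 353. Evc and Evc2, which form a complex with active SMO near the base of the cilium, had 139 and 32 for Evc and 441 for Evc2. The 14 kinase and ubiquitin ligase genes that act on GLI factors all passed as well, where the rates would give 11.2. Prkaca, a catalytic subunit of protein kinase A, had 1542 and 459. Gsk3b, a kinase that adds to the marks set by protein kinase A, had 6 probe sets from 38 to 1365, with 5 above the limit. Btrc, the F-box protein that recognises phosphorylated GLI factors, had 5 probe sets from 19 to 144, with 2 above it. Spop, an adaptor that sends GLI2 and GLI3 for degradation, had 1946, 467 and 463. These kinases and ligases act on many other substrates, so they are not particular to the pathway.

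Of 12 genes reported as Hedgehog targets in various tissues, 10 were above the limit, where the array's rates would give 9.37. Ccnd1, a G1 cyclin, had 226, 189 and 40. Ccnd2, another G1 cyclin, had 7 probe sets from 87 to 3862, all above the limit. Mycn, a growth-promoting transcription factor, had 520, 136 and 60. Foxf1, a forkhead factor of the mesenchyme beside gut epithelium, had 55 and 30, the first 0.24 above the limit on the log2 scale. Foxf2 and Foxl1, forkhead factors of the same mesenchyme, were the 2 genes not above it, with at most 23 each, and were named for that after the values were seen. Foxm1, a forkhead factor of dividing cells, had 103, 57, 48 and 10, with 3 of its 4 probe sets above the limit, and was also named after its values were seen. Cyclins, Mycn and Foxm1 are induced by many other signals too.

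**Figure D3:**
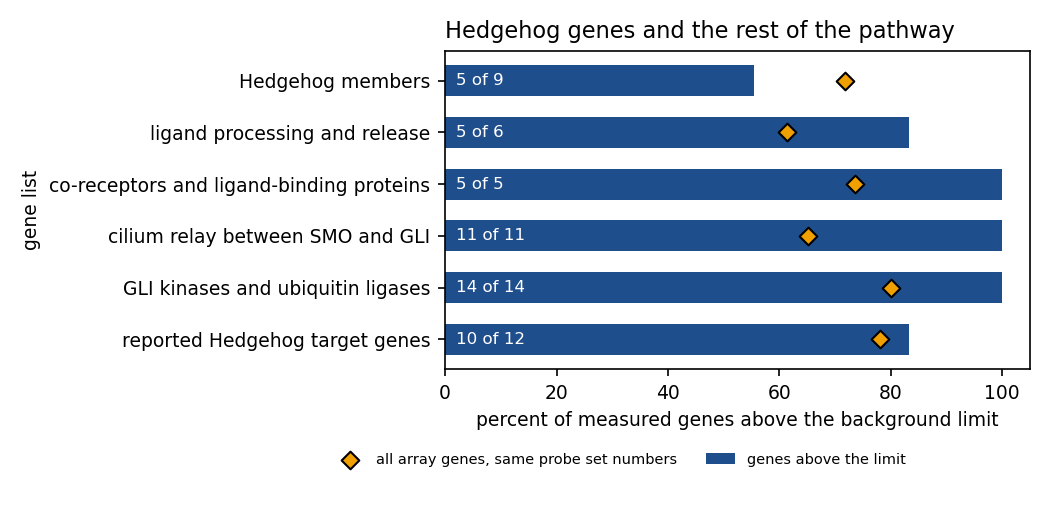
Blue bars give the percentage of measured genes above the background limit in the 9 Hedgehog genes and in 5 further pathway lists, with the counts inside the bars, and diamonds give the percentage that all array genes with the same numbers of probe sets would give. The 9 genes (5 of 9) lie below their diamond, and the 5 other lists lie above theirs.

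The labelled cell type was checked against its markers, and all 10 surface epithelium and mesothelium markers were above the limit, with levels of 2047 to 20836 on the brightest probe set of each gene. Krt8 and Krt19, keratins of simple epithelia, had at most 4573 and 4897, Upk3b, a uroplakin of mesothelium, had at most 20836, and Msln, mesothelin, had 2047. Genes with the same numbers of probe sets would give 5.74 of 10 at the array's rates. Markers of other cell types were also above the limit, in numbers given below beside the number the array's rates would give, and their part in the Hedgehog values was not tested. In a bulk sample, fewer cells of a type and less RNA per cell cannot be told apart. Nor does it show which cells a marker transcript came from.

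Among the cell types known to send or receive Hedgehog signals, granulosa cell markers were above the limit in 4 of 7 genes, with levels of 34 to 1438, where the array's rates would give 4.21. Foxl2, a granulosa transcription factor, had 321 and 11, Amh, anti-Müllerian hormone, had 58, and Inha, the inhibin alpha subunit, had 1438, while Fshr, the follicle-stimulating hormone receptor, had 34. Theca and interstitial markers passed in 4 of 5 genes, with levels of 18 to 1229, where the rates would give 3.32. Both counts are near those of the array. Star, which carries cholesterol into mitochondria, had at most 1229, Cyp11a1, which makes pregnenolone from cholesterol, had at most 381, Hsd3b1, the next enzyme, had 175, and Cyp17a1, which defines androgen-making theca cells, was at background with 18. All 7 fibroblast markers, with levels of 209 to 29972, and all 5 smooth muscle and pericyte markers, with 764 to 23141, were above the limit, where the rates would give 4.76 and 3.21. Col1a1, a fibrillar collagen chain, reached 8290, Dcn, a matrix proteoglycan, 15048, Pdgfra, a growth factor receptor, 916, and Thy1, a surface protein of fibroblasts, 766. Acta2, Tagln, Myh11 and Cnn1, contractile proteins, reached 23141, 22357, 764 and 3985.

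Endothelial and Schwann cells are both known to make Dhh. Of 6 endothelial markers, of which the rates would give 3.08, only Kdr, a vascular growth factor receptor, passed, with 1813, while Pecam1, Cdh5 and Tie1, defining endothelial genes, had at most 14, 23 and 13. Of the Schwann cell markers, 3 were measured and 2 passed, no more than the 2.52 that the rates would give for these genes. Sox10, a glial transcription factor, had 75, 67 and 28, Mbp, a myelin protein that other cells also express in related forms, had at most 2526, and S100b had at most 21. All 6 oocyte markers were at background, where the rates would give 3.19 above it, with levels of 11 to 42; Zp3, Gdf9, Bmp15 and Figla had at most 20, 42, 18 and 14. All 5 macrophage markers passed, where the rates would give 2.72, with levels of 47 to 527; Csf1r, Adgre1, C1qa and Cd68 had at most 527, 47, 244 and 334. Of 3 oviduct markers, of which the rates would give 1.66, only Pax8, with 107, passed, while Ovgp1 and Foxj1 had 35 and 20. The array cannot assign Smo, Gli2, Gli3, Ptch1 or Dhh transcripts to any of these cells.

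**Figure D4:**
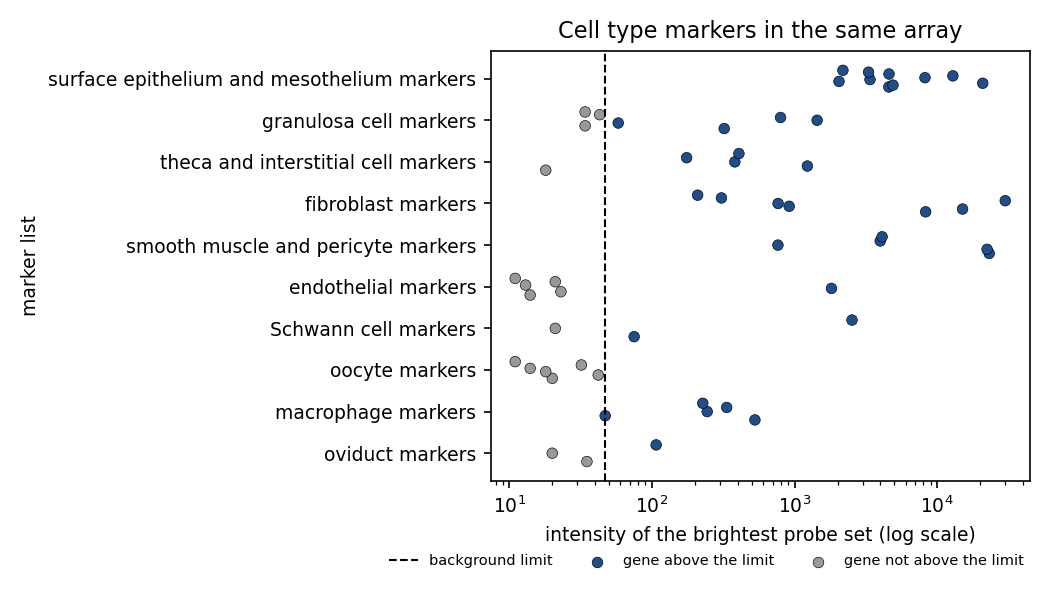
Each point is the intensity of the brightest probe set of a marker gene on a log axis, by cell type list, blue above the limit of 46.5 (dashed line) and grey otherwise; points are spread vertically for display. All 10 surface epithelium markers, 7 fibroblast markers and 5 smooth muscle markers lie to the right of the line, and all 6 oocyte markers to its left.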

How the data were processed

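Biotinylated cRNA was made from 5 ug of column-purified total RNA, per the labels' protocols. The deposited intensity values were made with affy and RMA, per the submitters' processing notes. Versions are not stated there. RMA output is normally in log2, but all 45101 deposited intensities are whole numbers on a linear scale, from 6 to 32341 with a median of 41, and no source used here describes the conversion. At the limit, rounding can shift a value by 0.015 on the log2 scale. RMA compresses differences between low intensities, and which arrays were normalized together is unknown.

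Intensities were put on the log2 scale and joined by identifier to the platform annotation. Of the probe sets, 34945 had 1 symbol, 932 several and 9160 none, besides 64 controls; only the first kind was used. All member gene numbers matched the RefSeq table of GRCm38.p6. A gene's level was that of its brightest probe set. The 126 background probe sets stood for 112 genes, and 7 of them exceed the limit by construction. No p-value is given, since there is 1 sample and genes are not replicates. Arrays have no read depth, and 1 array leaves the precision unknown.

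The members and lists were chosen with earlier results of these data known. All 9 genes are named, with the first 4 measured genes of every other list except the background lists. Other names were chosen after their values were seen. There were 9 alternatives from the outset and 3 added after the values were seen. Tables were made with pandas 2.3.3 and NumPy 2.4.6 in Python 3.11.15, and figures with matplotlib 3.10.9.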

Additional observations from a re-analysis of the deposited data

How the results depend on the processing

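The count of 5 of 9 Hedgehog genes above background was the same under 7 of the 9 alternatives chosen at the outset. It was 4 at the 99th percentile of background (84.75, without Dhh) and 1 when each gene took its lowest probe set (Gli2). Of the alternatives chosen after seeing the data, it was 0 of 6 measured genes with only curated-record probe sets, and 5 with only other records or with the dimmer of probe sets that share a record. The pathway count of 45 of 48 became 26 with the lowest probe set and 13 of 16 measured with curated records only. The cell type count of 39 of 57 became 18 of 32 measured with curated records only. Single lists also moved with the limit. At the 90th percentile (25.5), granulosa markers were 7 of 7, oocyte markers 2 of 6 and oviduct markers 2 of 3. A background of odour and pheromone receptors only (29.3) gave the same counts for these lists. Ligand processing and release fell to 3 of 6 at the 99th percentile, and also with a background of other-organ genes (67.7). With the lowest probe set, the log2 level relative to the background median was -0.24 for Smo, against 7.28 with the brightest, and -0.70 for Hhip, against 0.39; with the mean of its probe sets Hhip had -0.064. By construction, the lowest probe set of a gene cannot exceed its brightest, and curated records cover fewer genes. Gli2 was above the limit under all 11 alternatives that measured it. Shh, Ihh, Gli1 and Hhip were above it under none of the 11, 11, 11 and 12 that measured them. Most of these calls were fixed by construction. A higher limit, or a mean or subset of probe sets, cannot bring a gene that fails over the limit. Only a lower limit or added probe sets could have done so. Likewise, since every Gli2 probe set was over 46.5, only a higher limit could have taken Gli2 below it. The higher limits used were 47, 67.7 and 84.75, and Gli2 at 149 was above each. No paired analysis was possible because there is 1 sample. Signal over background limits Dhh most, at 78 against 46.5.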

Other observations

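Genes related to the pathway that the account above does not cover were looked up after the other values were seen. Of 7 measured zinc finger genes related to the GLI factors, 3 were above the limit, where the array's rates would give 4.40. These were Glis2, with 987 and 81, Glis1, with 74, and Glis3, with 91, whereas Zic1, Zic2, Zic4 and Zic5 had at most 11, 13, 13 and 15. The GLIS and ZIC proteins carry zinc fingers like those of the GLI factors, and ZIC proteins are best known from the nervous system. Sterols modify the ligands and bind SMO. All 4 measured sterol genes looked up were above the limit, where the array's rates would give 2.65. Dhcr7, the last enzyme of a route of cholesterol synthesis, had 510, Sc5d, a sterol desaturase, had 794, 281 and 28, Npc1, a sterol transporter related in sequence to Ptch1, had 436, and Npc2, a sterol-binding protein of the lysosome, had 9723, 8578, 242 and 20.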
